A study of Homo sapiens with 6 samples.

Results

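The integrated stress response was followed through 10 genes, *ATF4*, *ATF5*, *DDIT3*, *ATF3*, *TRIB3*, *PPP1R15A*, *ASNS*, *CHAC1*, *SESN2* and *DDIT4*, found by symbol among the 60651 genes of the count tables. Each symbol matched 1 gene. Total RNA sequencing covered 6 libraries of a human neuroblastoma cell line, 3 titled for the vehicle ethanol (EtOH) and 3 titled for tetracycline (Tet). The labels give the Tet cultures 5 days of tetracycline, and every culture is described as carrying a tetracycline-inducible *MYCN* system grown from single clones under G418 and blasticidin. No library had tetracycline without an inducible system, so effects of the drug and of induction cannot be told apart. The labels name several cell models. The titles hold the *MYCN*-amplified line IMR-5/75, a tag calls the groups control and induction of a knockdown, and the protocol speaks of *MYCN* expression in SK-N-SH, while the headers of the count tables again name IMR575, and the study describes an IMR-5/75 line in which tetracycline induces a *MYCN* shRNA. The titles, tag and headers match that knockdown, and the protocol does not.

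*MYCN* itself did not separate the groups. Its level was 157.9 CPM (counts scaled to a common library size) in EtOH replicate 1, 256.3 in replicate 2 and 155.9 in replicate 3, against 196.6, 200.1 and 145.4 CPM in the libraries labelled Tet. The groups overlapped, and the log2 fold change of Tet against EtOH was -0.07 with a standard error (SE) of 0.23 (edgeR quasi-likelihood test, Benjamini-Hochberg adjusted p = 0.956). The labels are therefore not checked by *MYCN* RNA, and directions are given for libraries as labelled. Library totals lay between 27933212 and 40497909 estimated counts, so that 3 counts correspond to between 0.0741 and 0.107 CPM. Of the markers of noradrenergic neuroblastoma, *HAND2*, *GATA3* and *ISL1* were present in every library, whereas *TH* had 1 count and *DBH* 36 counts in all 6 libraries together. Of the immune markers *PTPRC* reached at most 0.642 CPM, *CD68* 0.391 CPM and *LYZ* 1.02 CPM, and *CD3E* was at 0. Of 7 mesenchymal markers, *COL1A2* was at 0, and *PRRX1* (33.6 to 136.5 CPM), *FN1* (46.4 to 69.95 CPM) and *COL3A1* (7.17 to 20.1 CPM) were the highest. Their summed level was 217.7 CPM in EtOH replicate 2 and between 112.1 and 149.8 CPM in the other libraries, and its part in the results was not tested. The EtOH replicate 2 library stood farthest apart on the first principal component (44.7% of the variance), with Tet replicate 2 on the same side. The second component (25.7% of the variance) separated the groups, with the EtOH libraries between -39.1 and -34.7 and the Tet libraries between 26.4 and 48.1.

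In the integrated stress response, kinases that sense amino acid shortage, misfolded protein, viral RNA or haem shortage phosphorylate the translation factor eIF2, which slows protein synthesis in general and favours translation of *ATF4* mRNA. ATF4 is a transcription factor that binds composite C/EBP-ATF elements and raises genes for amino acid synthesis, transport and redox balance. In neuroblastoma, high MYCN raises the demand for amino acids, and because ATF4 is controlled largely by translation its mRNA level is an incomplete measure of its activity.

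Short DNA elements in the promoters of 4 members are shown because they are the sequences through which ATF4 and related factors are known to act. RefSeq windows on GRCh38.p14 reaching from 250 bases before to 50 bases after a start were searched on both strands, with 18 windows for the 10 members. The letters TGATGNAA, a C/EBP-ATF element, occurred in windows of 3 members, *ATF3*, *ASNS* and *CHAC1*, and in 3.62% of all 35116 windows. The letters TGACGTCA, a cAMP response element, occurred in a window of *PPP1R15A* and in 1.85% of all windows. Each line gives 48 bases read 5′ to 3′ on the strand of the gene, with the matched letters in capitals.
ATF3: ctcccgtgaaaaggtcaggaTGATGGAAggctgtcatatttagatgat
ASNS: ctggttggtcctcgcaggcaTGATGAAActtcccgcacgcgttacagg
CHAC1: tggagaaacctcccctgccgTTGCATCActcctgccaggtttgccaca
PPP1R15A: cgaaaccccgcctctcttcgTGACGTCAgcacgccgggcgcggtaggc
The *ATF3* stretch lies at chr1:212565196-212565243 on the plus strand, with the element 191 to 184 bases before the start. The *ASNS* stretch lies at chr7:97872449-97872496 on the minus strand, with the element 68 to 61 bases before the start. The *CHAC1* stretch lies at chr15:40953242-40953289 on the plus strand and reads the element from its opposite strand, 209 to 202 bases before the start. The *PPP1R15A* stretch lies at chr19:48872343-48872390 on the plus strand, with the element 58 to 51 bases before the start. Each start is the RefSeq start of the window that held the element, and it can differ from the bounds of the counted gene. The *ASNS* and *CHAC1* stretches lie inside the counted spans of their genes. The ER stress response element, the consensus bound by ATF6 with NF-Y, was in no member window and in 0.0769% of all windows. A match is a description of letters in a window, and binding was not measured.

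No member tested changed beyond the spread between libraries. Of the 10, 8 had enough counts to be tested, and 0 of these 8 passed an adjusted p of 0.05 in edgeR's quasi-likelihood test, against 0.236% of the 22443 genes tested. At an unadjusted p under 0.05 edgeR also called 0 members, where 10.8% of all genes fell. DESeq2 called 0 members after adjustment (2.23% of all genes) and limma-voom called 0 (0.258% of all genes). At an unadjusted p under 0.05 limma-voom called 0 (10.5% of all genes) and DESeq2 called 1 (10.7% of all genes), *CHAC1*, for which DESeq2 gave no adjusted value. The DESeq2 shares here and below are over the 22418 genes it gave an adjusted value, a set without *CHAC1*. By sign, 6 of the 8 were higher in the libraries labelled Tet and 2 were lower, with a median log2 fold change of 0.38 against -0.01 over all genes tested. Without Tet replicate 3 that median was -0.02. The EtOH and Tet values overlapped for all 8 members, whereas they did not overlap for 17.5% of all genes. The study's methods describe its in vitro work in general as independent biological replicates, but the labels do not tie these 3 libraries of a group to separate cultures, so the p-values are sure to measure only the spread between these libraries. In bulk RNA, fewer expressing cells and less RNA per cell cannot be told apart.

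**Figure D1:**
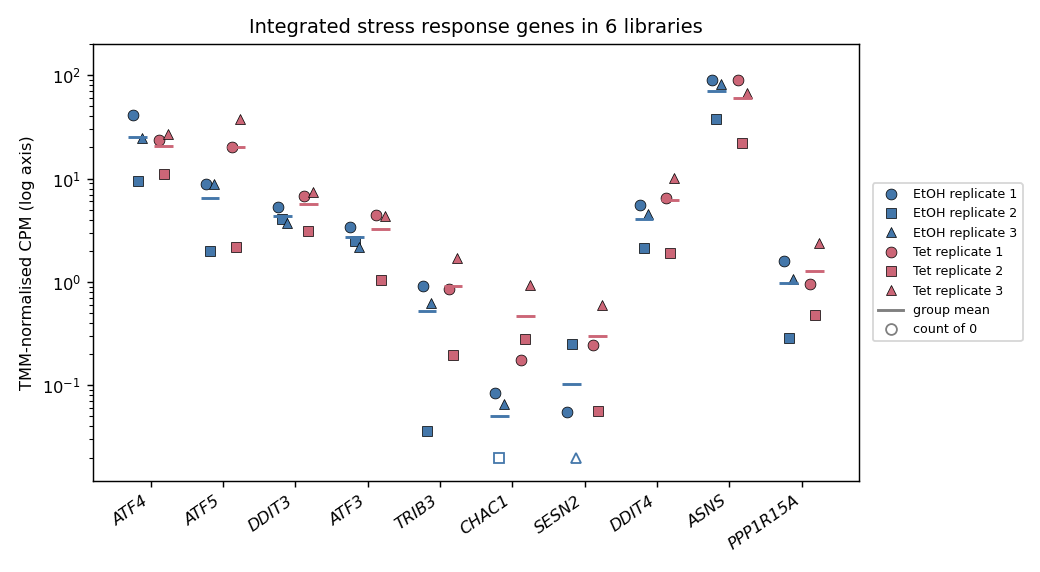
TMM-normalised CPM (log axis) of the 10 genes in the 3 EtOH libraries (blue) and the 3 libraries labelled Tet (red); symbols mark the replicate number, short bars the group means, and open symbols counts of 0. The squares of replicate 2 sit lowest in both groups for *ATF4*, *ATF5*, *TRIB3*, *DDIT4*, *ASNS* and *PPP1R15A*, and the groups overlap for the 8 members tested.

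Per length, *ASNS* and *ATF4* were the most abundant members. Mean TPM, a level scaled by exon length and library size, over the 6 libraries were 35.9 for *ASNS*, 23.7 for *ATF4*, 12.03 for *ATF5*, 10.4 for *DDIT3* and 6.42 for *DDIT4*. They were 1.99 for *ATF3*, 0.971 for *PPP1R15A*, 0.627 for *TRIB3*, 0.320 for *CHAC1* and 0.155 for *SESN2*. The ranges of every neighbouring pair overlapped across the 6 libraries, as for *ASNS* from 12.3 to 51.6 TPM and *ATF4* from 10.7 to 42.9 TPM. Within libraries the order was steadier. *ASNS* exceeded *ATF4* in 6 of 6 libraries, and the same held for *DDIT3* over *DDIT4*, *DDIT4* over *ATF3*, *ATF3* over *PPP1R15A* and *PPP1R15A* over *TRIB3*. *ATF4* exceeded *ATF5* in 5 of 6, *TRIB3* exceeded *CHAC1* and *CHAC1* exceeded *SESN2* in 5 of 6, and *ATF5* exceeded *DDIT3* in 3 of 6. The counting divided read pairs among overlapping genes. It touched *ASNS*, where 49.3% of exon bases lie in another gene (ENSG00000284707), *DDIT3* with 39.6% and *ATF5* with 22.1%. Their levels may be understated, or may hold reads of the genes they overlap. *MARS1*, which overlaps *DDIT3*, had 34.9, 22.5 and 26.0 CPM in the EtOH libraries and 40.3, 29.0 and 47.7 CPM in the libraries labelled Tet. Its part in the *DDIT3* values was not tested. The other 7 members share no exon bases with another gene.

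*ATF4* (ENSG00000128272.16, GRCh38 chromosome 22, 39519695 to 39522683, plus strand), the transcription factor at the centre of the response, was measured at 41.6, 9.49 and 24.7 CPM in the EtOH libraries (replicates 1 to 3, as throughout) and at 23.7, 11.2 and 27.2 CPM in the libraries labelled Tet. Replicate 2 was the lowest library in both groups and EtOH replicate 1 the highest of all, so the Tet values fell inside the EtOH range. The group means were 25.3 ± 16.1 and 20.7 ± 8.42 CPM (SD, n = 3 each). With a log2 fold change of -0.29 and an SE of 0.50, *ATF4* was not called (edgeR adjusted p = 0.903), and the sign rested on single libraries. It was 0.25 without EtOH replicate 1 and 0.01 without Tet replicate 2.

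*ATF5* (ENSG00000169136.12, chromosome 19, 49928702 to 49933935, plus strand), a factor related to ATF4 that is also translated when eIF2 is phosphorylated and is linked to mitochondrial stress, showed the largest fold change of the members. It had 8.87, 1.98 and 8.76 CPM in the EtOH libraries and 20.03, 2.20 and 38.1 CPM in the libraries labelled Tet. Tet replicates 1 and 3 lay above every EtOH library, and Tet replicate 2 lay between the EtOH values. The log2 fold change was 1.62 with an SE of 0.87 (edgeR adjusted p = 0.568), the lowest adjusted p among the members. It was 2.15 without Tet replicate 2 and 0.76 without Tet replicate 3, and neither passed the threshold.

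*DDIT3* (ENSG00000175197.12, chromosome 12, 57516588 to 57521737, minus strand) encodes CHOP, a C/EBP family factor induced by ATF4 and tied to cell death in prolonged stress. It had 5.33, 4.04 and 3.70 CPM in the EtOH libraries and 6.70, 3.07 and 7.37 CPM in the libraries labelled Tet. Tet replicates 1 and 3 were again above every EtOH library and Tet replicate 2 was the lowest of all 6. Its log2 fold change was 0.39 with an SE of 0.35 (edgeR adjusted p = 0.777). It was 0.69 without Tet replicate 2 and 0.16 without Tet replicate 3.

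*ATF3* (ENSG00000162772.17, chromosome 1, 212565334 to 212620777, plus strand), a stress-induced factor that can repress or activate, had 3.40, 2.49 and 2.18 CPM in the EtOH libraries. The libraries labelled Tet had 4.43, 1.04 and 4.30 CPM, which placed replicate 2 below and replicates 1 and 3 above all EtOH values. Tet against EtOH gave a log2 fold change of 0.27 with an SE of 0.50 (edgeR adjusted p = 0.912), and it was -0.03 without Tet replicate 1 and 0.70 without Tet replicate 2. *ATF3* followed the libraries much as *DDIT3* did, with a root mean square difference of 0.31 between their centred log2 CPM profiles.

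*TRIB3* (ENSG00000101255.11, chromosome 20, 362835 to 397559, plus strand), a pseudokinase that is induced by ATF4 and CHOP and restrains them in return, was low. It had 33, 1 and 19 counts in the EtOH libraries and 24, 7 and 68 counts in the libraries labelled Tet, or 0.921, 0.0361 and 0.628 CPM against 0.851, 0.197 and 1.71 CPM. Replicate 2 was the lowest library of each group, and only Tet replicate 3 exceeded the EtOH range. The log2 fold change of 0.78 had an SE of 0.93 (edgeR adjusted p = 0.841) and became -0.06 without Tet replicate 3.

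*PPP1R15A* (ENSG00000087074.8, chromosome 19, 48872421 to 48876058, plus strand) encodes GADD34, which directs a phosphatase to eIF2 and so ends the response. Its values were 1.59, 0.289 and 1.06 CPM in the EtOH libraries and 0.957, 0.479 and 2.39 CPM in the libraries labelled Tet. The highest was Tet replicate 3 and the lowest EtOH replicate 2, with the remaining libraries mixed. For Tet against EtOH it changed by 0.38 (log2) with an SE of 0.70 (edgeR adjusted p = 0.913). It was -0.47 without Tet replicate 3 and -0.04 without EtOH replicate 2.

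*ASNS* (ENSG00000070669.17, chromosome 7, 97851677 to 97872542, minus strand), asparagine synthetase and a direct ATF4 target whose element is printed above, had 89.6, 37.9 and 82.2 CPM in the EtOH libraries. The libraries labelled Tet had 89.6, 22.2 and 67.4 CPM. Replicate 2 was low in both groups, and the highest values of the groups were equal to 3 digits. *ASNS* had a log2 fold change of -0.23 with an SE of 0.48 (edgeR adjusted p = 0.928), and it was 0.17 without Tet replicate 2.

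*DDIT4* (ENSG00000168209.6, chromosome 10, 72273919 to 72276036, plus strand), also known as REDD1, an inhibitor of mTORC1 signalling, had 5.52, 2.13 and 4.53 CPM in the EtOH libraries and 6.42, 1.89 and 10.2 CPM in the libraries labelled Tet. Tet replicates 1 and 3 were above all EtOH libraries and Tet replicate 2 was below them. *DDIT4* had a log2 fold change of 0.60 with an SE of 0.57 (edgeR adjusted p = 0.791), and it was 0.03 without Tet replicate 3 and 1.03 without Tet replicate 2.

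*CHAC1* and *SESN2* were too low for the filter and have no place in the test. *CHAC1* (ENSG00000128965.13, chromosome 15, 40952962 to 40956512, plus strand), a glutathione-degrading enzyme, had 3, 0 and 2 counts in the EtOH libraries and 5, 10 and 37 counts in the libraries labelled Tet. Each Tet library exceeded each EtOH library, but Tet replicate 3 held 71.2% of the Tet counts. The ratio of summed counts per library total, Tet over EtOH, was 9.09 (95% exact interval 3.65 to 29.2, counting error only), and 4.25 without Tet replicate 3. In an edgeR fit with no filter its log2 fold change was 3.08 (adjusted p = 0.162). *SESN2* (ENSG00000130766.5, chromosome 1, 28259518 to 28282491, plus strand), sestrin 2, a leucine sensor that restrains mTORC1, had 2, 7 and 0 counts in the EtOH libraries and 7, 2 and 24 counts in the libraries labelled Tet. Its groups overlapped, and Tet replicate 3 held 72.7% of the Tet counts. The ratio of summed counts was 3.20 (95% exact interval 1.50 to 7.61, counting error only), and 1.42 without Tet replicate 3. The fit with no filter gave a log2 fold change of 1.58 (edgeR adjusted p = 0.729). The intervals do not include the spread between libraries.

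**Figure D2:**
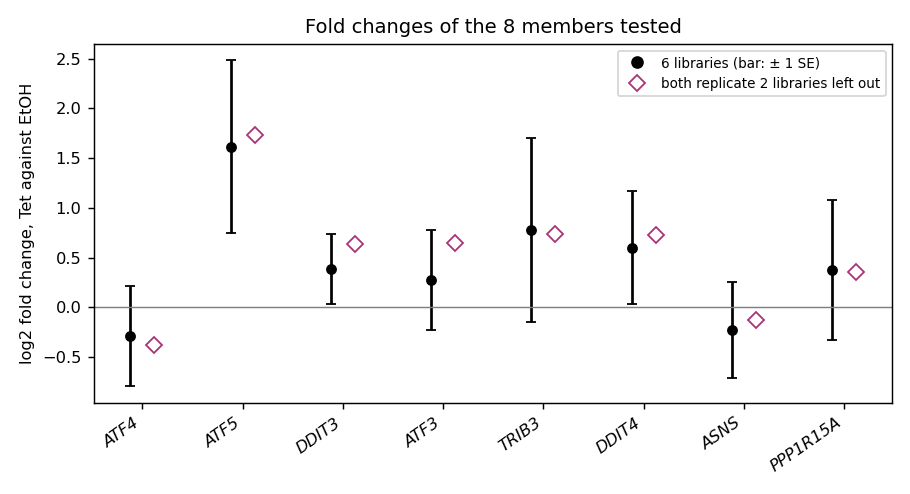
Log2 fold changes of the 8 members tested, Tet against EtOH, from all 6 libraries (points, with bars of 1 SE either way) and with both replicate 2 libraries left out (diamonds). *ATF5* lies highest at 1.62, and *ATF4* and *ASNS* lie below 0 at -0.29 and -0.23.

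Low values in replicate 2 recurred among the members in both groups, but their profiles were not all alike. The root mean square difference of centred log2 CPM was 1.16 between *ATF5* and *DDIT3*, against 0.31 between *ATF3* and *DDIT3*. For *DDIT3* and *ATF3* the lowest EtOH library was replicate 3. Tet replicate 2 was the lowest Tet library for 8 of 8 tested members (40.7% of all genes), and EtOH replicate 2 was the lowest EtOH library for 6 of 8 (45.8% of all genes). Both held for 6 of 8 members (28.7% of all genes). Tet replicate 3 was the highest Tet library for 6 of 8 members (40.0% of all genes). Expressed as log2 CPM minus the EtOH mean of each gene, the median member stood at 0.63, -0.99 and 0.30 in EtOH replicates 1 to 3 and at 0.68, -0.95 and 1.10 in the libraries labelled Tet. Over all genes tested the same medians lay between -0.03 and 0.05.

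GC content moved with part of this pattern. The exons of 7 of the 10 members had a GC content over 57%, and 5 of the 8 tested members fell in the highest of 4 equal groups of genes ordered by GC (50.96% to 83.89%). In that group the median gene was at -0.34 in EtOH replicate 2, at -0.18 in Tet replicate 2 and at 0.42 in Tet replicate 3, as log2 CPM minus the mean of the 6 libraries. In the group with the lowest GC the same libraries stood at 0.24, 0.13 and -0.11. Tet replicate 1 stood at -0.10 in the highest group on the same scale. Among all genes of the highest group Tet replicate 3 was the highest Tet library for 70.2%, and replicate 2 was the lowest library of both groups for 38.3%. The share for replicate 2 was 37.99% in the next lower GC group. With the GC trend of each library removed, a step added after the data were seen, edgeR called 0 of 8 members (0.539% of all genes), and *ATF5* had a log2 fold change of 1.35 (adjusted p = 0.493). The median log2 fold change of the members was then 0.32, against 0.38 before. *ASNS*, at 43.2% GC, was also low in both replicate 2 libraries. The part of GC content in the values of the members was not tested.

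**Figure D3:**
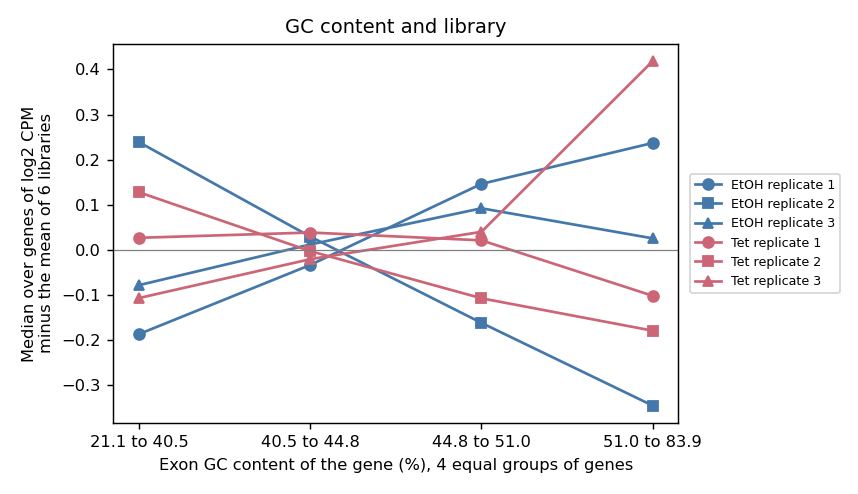
Median over genes of log2 CPM minus the mean of the 6 libraries, for 4 equal groups of the genes tested ordered by exon GC content, with 1 line per library (blue EtOH, red Tet; symbols mark the replicate). The replicate 2 libraries run from above 0 at low GC to below 0 at high GC, and Tet replicate 3 runs the other way, to 0.42.

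Because replicate 2 stood apart in both groups, the comparison was repeated with both replicate 2 libraries left out, a choice made after the data were seen. It then held 2 libraries a group, and edgeR called 3.77% of 23156 genes. *ATF5* was the 1 member called, with a log2 fold change of 1.73 (adjusted p = 0.0202), and 3 members, *ATF5*, *DDIT3* and *DDIT4*, had an unadjusted p under 0.05 (20.8% of all genes). *DDIT3* stood at 0.64 (adjusted p = 0.189), *DDIT4* at 0.73 (adjusted p = 0.177) and *ATF3* at 0.64 (adjusted p = 0.251) in the same edgeR fit. *ATF4* remained below 0 at -0.38 (adjusted p = 0.393) and *ASNS* at -0.13 (adjusted p = 0.686). With Tet replicate 2 alone left out, *ATF5*, *DDIT3*, *ATF3* and *DDIT4* had Tet values above all 3 EtOH values, as did 14.1% of all genes. Tet replicate 2 was the lowest Tet library for 8 of 8 tested members, so leaving it out raises their Tet means.

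A wider set of 48 further ATF4 target genes, of which 41 were tested, was read in the same fit. In edgeR 0 of 41 passed the threshold (0.236% of all genes) and 2 had an unadjusted p under 0.05 (10.8% of all genes), and DESeq2 called 0 (2.23% of all genes). The log2 fold change was above 0 for 34 of 41 (49.3% of all genes), with a median of 0.28. Tet replicate 2 was the lowest Tet library for 35 of 41 (40.7% of all genes). With both replicate 2 libraries left out, 44 passed the filter and the median was 0.47. Of these 44, 6 were called higher, against 2.1% of all genes, and 0 lower, against 387 of 23156 genes. The 6 were *SLC7A11*, *PSAT1*, *GPT2*, *GARS1*, *WARS1* and *CEBPG*, named after their values were seen. Because Tet replicate 2 was the lowest Tet library for most targets, leaving it out raises their Tet means. These calls are therefore no independent support for a change.

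The transport list held the largest change among the targets. Of 10 transporter genes 8 were tested, all with a log2 fold change above 0 and a median of 0.37 (0.21 without Tet replicate 3 and 0.64 without Tet replicate 2). *SLC7A11*, the cystine transporter subunit xCT that feeds glutathione synthesis, had 40.9, 55.8 and 44.1 CPM in the EtOH libraries and 180.5, 22.8 and 165.8 CPM in the libraries labelled Tet. Tet replicates 1 and 3 stood far above the EtOH libraries and Tet replicate 2 below them. The log2 fold change was 1.39 with an SE of 0.60 (edgeR adjusted p = 0.460), and it was 2.03 (adjusted p = 8.8e-04) without both replicate 2 libraries. At 35.4% GC, *SLC7A11* belongs to the group of genes with the lowest GC.

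Of 12 aminoacyl-tRNA synthetase genes, which charge tRNAs with amino acids, all 12 were tested, 9 were above 0 and the median was 0.22. That median was 0.07 without Tet replicate 3, 0.08 without Tet replicate 1 and 0.48 without Tet replicate 2. *WARS1*, the tryptophan enzyme, had 17.4, 16.8 and 17.5 CPM in the EtOH libraries and 32.9, 20.8 and 36.7 CPM in the libraries labelled Tet, so that every Tet library lay above every EtOH library. Its log2 fold change was 0.81 with an SE of 0.23 (edgeR adjusted p = 0.224). Of 12 genes of amino acid synthesis and one-carbon metabolism 11 were tested, 9 were above 0 and the median was 0.22, which became -0.13 without Tet replicate 3, 0.51 without Tet replicate 2 and 0.09 with the GC trend removed. The largest was *PYCR1*, a proline synthesis enzyme, at 0.62 (edgeR adjusted p = 0.764), which was -0.03 with the GC trend removed. Of 14 signalling, secreted and transcription factor genes 10 were tested, 8 were above 0 and the median was 0.32 (0.17 without either Tet replicate 1 or Tet replicate 3). The largest was *EIF4EBP1*, a repressor of cap-dependent translation, at 0.96 (edgeR adjusted p = 0.638). Its value was 4.33 CPM in Tet replicate 3 and between 0.860 and 1.30 CPM in the other libraries. *NUPR1*, *FGF21*, *GDF15* and *JDP2* were too low to be tested.

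**Figure D4:**
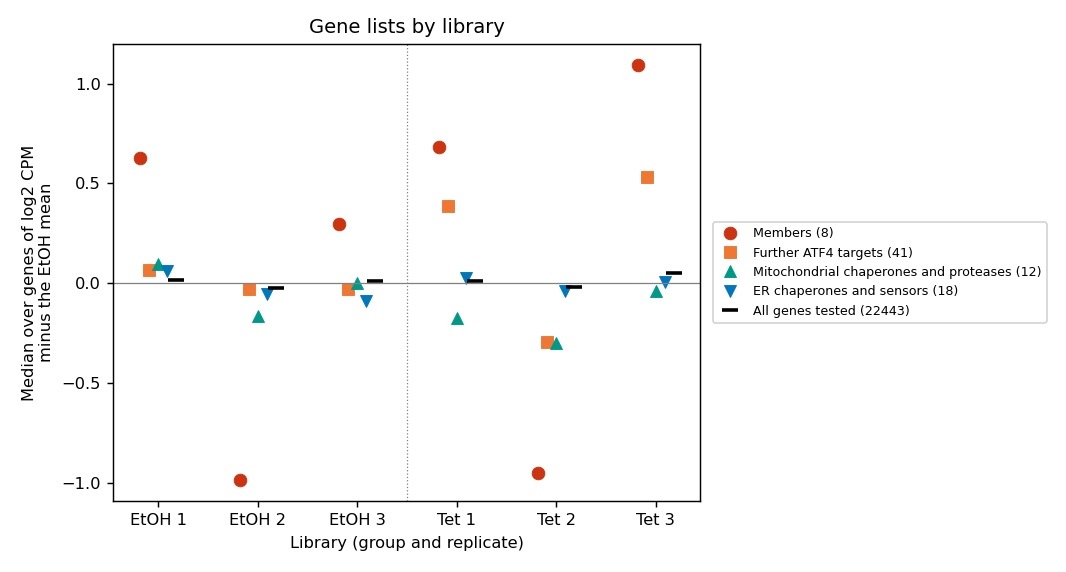
Median over the genes of a list of log2 CPM minus the EtOH mean, by library, for the 8 tested members, 41 further ATF4 targets, 12 mitochondrial chaperones and proteases, 18 genes of the endoplasmic reticulum and all 22443 genes tested. The members and the ATF4 targets are high in Tet replicates 1 and 3 and low in Tet replicate 2, and the members are also low in EtOH replicate 2.

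Upstream of ATF4, the 18 genes for the eIF2 kinases, their mitochondrial relay, eIF2, eIF2B and the eIF2 phosphatases were all tested. In edgeR 0 were called (0.236% of all genes) and 0 had an unadjusted p under 0.05 (10.8% of all genes). DESeq2 called 0 (2.23% of all genes). The median log2 fold change was -0.13 (-0.01 without EtOH replicate 2 and -0.04 without EtOH replicate 1). The largest was *PPP1CA*, a catalytic phosphatase subunit, at 1.16 (edgeR adjusted p = 0.562). *PPP1CA* was low, with 0.921, 0.469 and 0.331 CPM in the EtOH libraries and 0.638, 0.846 and 2.37 CPM in the libraries labelled Tet. Only Tet replicate 3 exceeded the EtOH range, and the log2 fold change was 0.70 with the GC trend removed. *EIF2AK3*, the kinase PERK, lay above the EtOH range in all Tet libraries, and *EIF2AK4*, the kinase GCN2, *EIF2S3* and *EIF2B3* lay below it, all chosen after their values were seen. Groups that do not overlap were found for 17.5% of all genes. *EIF2AK3* had 38.4, 41.5 and 41.6 CPM in the EtOH libraries and 45.2, 52.2 and 41.8 CPM in the libraries labelled Tet, a log2 fold change of 0.20 (edgeR adjusted p = 0.724).

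Other stress programmes were read beside the members. Of all genes, edgeR called 0.236% and DESeq2 2.23%, and 10.8% had an unadjusted p under 0.05 in edgeR. Of 12 genes for mitochondrial chaperones and proteases 0 were called by edgeR or DESeq2, 0 had an unadjusted p under 0.05 in edgeR and the median was -0.14, with *CLPP*, a protease subunit, largest at 0.86 (edgeR adjusted p = 0.772). *CLPP* had 0.558, 0.505 and 0.298 CPM in the EtOH libraries and 0.390, 0.226 and 1.84 CPM in the libraries labelled Tet, high in Tet replicate 3 alone, and its log2 fold change was 0.54 with the GC trend removed. The median of the list was -0.31 without Tet replicate 3 and -0.06 without Tet replicate 2. Of 18 tested genes of the endoplasmic reticulum branch under ATF6 and XBP1, 0 were called by edgeR or DESeq2, 0 had an unadjusted p under 0.05 and the median was -0.02, and 0.13 without EtOH replicate 2. The chaperone gene *HSPA5* had 694 CPM in EtOH replicate 2 and between 247 and 290 CPM in the other libraries, and its log2 fold change of -0.49 (edgeR adjusted p = 0.718) became 0.17 without both replicate 2 libraries. In that comparison *HERPUD1*, a membrane protein of this compartment named after its values were seen, was called at 0.87 (edgeR adjusted p = 0.0333), against -0.02 with all 6 libraries. The 13 mRNAs of the mitochondrial genome had a median of 0.14 (-0.10 without EtOH replicate 2 and -0.06 without Tet replicate 3), with 0 called by either tool, 0 at an unadjusted p under 0.05 and *MT-CYB* largest at 0.46 (edgeR adjusted p = 0.796). The share of counts from the mitochondrial genome was 7.54% ± 3.06 (SD, n = 3) in EtOH and 7.27% ± 1.69 (SD, n = 3) in Tet (exact permutation test, two-sided, p = 1.0, smallest possible 0.1).

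Of 10 tested immediate early genes, which answer to growth signals and handling, 0 were called by edgeR (0.236% of all genes) or DESeq2 (2.23% of all genes). In edgeR 0 had an unadjusted p under 0.05 (10.8% of all genes). *EGR3* was the largest at -1.70 (edgeR adjusted p = 0.674), with 20.4 CPM in EtOH replicate 2 and at most 3.39 CPM in the other libraries, and it was 1.21 without both replicate 2 libraries. There *JUN* at 0.94 (edgeR adjusted p = 0.0243) and *EGR1* at 1.74 (adjusted p = 0.0109), named after their values were seen, were called, against -0.42 and 0.73 with all 6 libraries. The median of the list was -0.0036 with all 6 libraries and 0.87 without EtOH replicate 2. Of 11 tested p53 targets edgeR called 0 (0.236% of all genes), 3 had an unadjusted p under 0.05 (10.8% of all genes) and DESeq2 called 1 (2.23% of all genes), with a median of 0.05 that became 0.20 to 0.24 without EtOH replicate 1 or any single Tet library. The gene DESeq2 called was *TP53INP1*, a regulator of cell death and autophagy named after its values were seen. It had 153.9, 137.4 and 172.0 CPM in the EtOH libraries and 260.6, 306.1 and 251.3 CPM in the libraries labelled Tet, with every Tet library above every EtOH library. Its log2 fold change was 0.82 with an SE of 0.16 (edgeR adjusted p = 0.0892), and 0.66 (adjusted p = 0.0236) without both replicate 2 libraries. *CDKN1A*, the cell cycle inhibitor p21, had the largest fold change at 1.06 (edgeR adjusted p = 0.354), also with every Tet library above every EtOH library. Of 10 tested hypoxia targets edgeR called 0 (0.236% of all genes), 1 had an unadjusted p under 0.05 (10.8% of all genes) and DESeq2 called 1 (2.23% of all genes). Their median was -0.23, and 0.26 without EtOH replicate 2. *AK4*, an adenylate kinase of mitochondria and the gene DESeq2 called, was the largest at -1.10 (edgeR adjusted p = 0.207), with every Tet library below every EtOH library. Without both replicate 2 libraries *AK4* was called at -0.80 (edgeR adjusted p = 0.0409), and *KDM3A*, a histone demethylase named after its values were seen, at 0.89 (adjusted p = 0.00869), against 0.49 with all 6 libraries.

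The genes with profiles most like each member, among 10088 or 10089 others with a mean of at least 5 CPM, were ranked by the root mean square difference of centred log2 CPM over the 6 libraries. For *ATF4* they were *CTSL* at 0.15, *XPC* at 0.15 and *TSPYL2* at 0.16. *CTSL* had 13.5, 3.14 and 10.4 CPM in the EtOH libraries and 8.12, 4.51 and 9.16 CPM in the libraries labelled Tet, with the same low replicate 2 libraries as *ATF4*. The nearest genes were *VLDLR* to *DDIT3* at 0.14, ENSG00000273906 to *ATF3* at 0.20, *AARS1* to *DDIT4* at 0.20 and *BAG6* to *PPP1R15A* at 0.18. *TNR* was nearest to both *TRIB3* at 0.24 and *ATF5* at 0.64, so no candidate came closer to *ATF5* than that. The member *TRIB3*, too low to be a candidate, was closer to *ATF5* at 0.58. The nearest to *ASNS*, at 0.04, was ENSG00000284707, the gene it overlaps and shares divided reads with.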

How the data were processed

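Total RNA was sequenced from 6 libraries, 3 EtOH and 3 Tet, grouped by title. The authors deposited estimated counts for 60651 genes, 1 table per library. Per the labels, the authors depleted ribosomal RNA by enzymatic digestion and used a stranded paired-end kit, and the processing notes name STAR 2.7.1a, featureCounts 1.5.1 and GRCh38. Per the file headers, featureCounts 1.6.4 took uniquely aligned pairs in exons, dividing read pairs among overlapping genes and not using the strand, so overlapping genes cannot be told apart fully. The study's methods give other options, and the headers were followed. The headers name the line IMR575 and mark its alignments minus or plus Tet, which places each file in the group and number of its title.

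The deposited counts were not all whole numbers and were rounded to whole numbers for the test. Genes were kept by filterByExpr (22443), scaled by TMM and tested with edgeR 4.0.16 in R 4.3.3 (glmQLFit, glmQLFTest, all 6 libraries, no block), with Benjamini-Hochberg adjustment over all genes tested and a threshold of 0.05. SE is the log2 fold change divided by the square root of F. The script was tested on simulated data. CPM are TMM-normalised, and TPM used the exon lengths in the tables. DESeq2 1.42.0, limma-voom (limma 3.58.1), other scalings, no filter, no mitochondrial genes, a replicate block and each library left out were alternatives, and the GC trend and the loss of both replicate 2 libraries were added after the data were seen. The members and lists were chosen with earlier results of these data known. Named genes were the members, of each list the largest change and every gene called with all 6 libraries, *MYCN*, and the nearest profiles (3 for *ATF4*, 1 for each other member). Coordinates are on GRCh38, counted from 1. Replicate numbers were not taken as pairs, since the labels do not tie them to a shared batch. Deviations of same-numbered libraries correlated at 0.06, 0.51 and 0.22 for replicates 1 to 3, so shared structure is possible. The replicate block among the alternatives takes it into account. Some markers checked are not reported here. Intervals and limits of low counts cover counting error only.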

Additional observations from a re-analysis of the deposited data

How the results depend on the processing

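The members gave 0 calls under all alternatives run but 1. Leaving out both replicate 2 libraries, added after the data were seen, gave 1 member higher (*ATF5*, 1.73). For single members, leaving out 1 library moved the log2 fold change between -0.68 and 0.25 for *ATF4*, -0.029 and 0.70 for *ATF3*, -0.056 and 1.43 for *TRIB3*, -0.66 and 0.17 for *ASNS* and -0.47 and 0.90 for *PPP1R15A*, and members without overlap between groups numbered 0 to 4. *ATF5*, *DDIT3* and *DDIT4* kept a positive sign under all alternatives run. Over all genes, 33 were higher and 20 lower. These counts were 185 and 117 with no filter, 290 and 209 by DESeq2 and 73 and 48 with the GC trend removed, and the lower count was 13 with RLE size factors. Leaving out 1 library gave 0 to 361 higher and 0 to 331 lower, the largest both without EtOH replicate 2, and leaving out both replicate 2 libraries gave 487 and 387. With the replicate number as a block, 421 were higher and 254 lower and 0 members were called. *ATF5* then stood at 1.24 (edgeR adjusted p = 0.064), and the correlations of same-numbered deviations were 0.06, 0.51 and 0.22. The p53 targets gave 1 higher and the hypoxia targets 1 lower with no filter, by DESeq2 and under the block. Leaving out 1 library gave 0 to 1 p53 target, 0 to 1 hypoxia target and 0 to 2 immediate early genes higher. Without both replicate 2 libraries the calls higher were 2 for amino acid synthesis, 1 for transport, 2 for tRNA synthetases, 1 for signalling, 1 for the endoplasmic reticulum, 2 for immediate early genes, 1 for p53 and 1 for hypoxia, and 1 hypoxia target was lower. The cause of these shifts was not tested. The depth limits *CHAC1*, *SESN2* and *TRIB3*, where a few counts decide a value.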
